A study of Homo sapiens with 61 samples.

Results

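Cortical-type neurons that carried knockouts (KO) of both DLK (gene MAP3K12) and LZK (gene MAP3K13), here called double KO, were compared with and without vincristine. The 8 libraries used were 4 untreated and 4 vincristine libraries of this line, out of 61 in the series, chosen by their labels. All 16304 genes that passed a filter on low counts in these libraries were tested. The cells derive from WTC11 (a widely used human line of induced pluripotent stem cells) and were turned into neurons by the transcription factor NGN2, driven by a doxycycline-inducible cassette that every line carried. At day 14 the cultures received 5 nM vincristine for 16 hours, and the untreated cultures received DMSO vehicle; the extraction protocol gives 10 to 14 days of differentiation. The comparison line is the wild type (WT) with the same cassette, handled the same way, with 4 untreated and 4 vincristine libraries. The labels do not say whether the knockout line is 1 clone, nor whether the 4 libraries of a group came from separate differentiations, so p-values measure the spread between these libraries, which may be technical.

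Vincristine binds tubulin and keeps it out of microtubules. DLK and LZK are related kinases that sense cytoskeletal and axonal damage in neurons and switch on the JNK kinases, which act on the transcription factor JUN. Cells also adjust tubulin messages directly: when free tubulin rises, the ribosomes that translate alpha and beta tubulin are recognised at the start of the new protein by the factor TTC5, and the message is degraded. Cholesterol synthesis genes are a separate circuit, driven by the transcription factor SREBP2 and held back by INSIG1.

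Tubulin autoregulation reads the start of the new protein, so the first 30 coding bases of the tubulin genes, which encode it, are shown, from GENCODE 29 transcripts on GRCh38. Capitals mark the first 12 bases, the first codons of the gene.
TUBA1A: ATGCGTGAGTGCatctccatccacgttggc
TUBA1B: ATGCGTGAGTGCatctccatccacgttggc
TUBA1C: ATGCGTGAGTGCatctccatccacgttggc
TUBA4A: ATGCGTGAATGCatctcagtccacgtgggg
TUBB: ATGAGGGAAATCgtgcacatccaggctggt
TUBB2A: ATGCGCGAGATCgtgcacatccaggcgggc
TUBB2B: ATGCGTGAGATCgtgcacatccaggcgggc
TUBB3: ATGAGGGAGATCgtgcacatccaggccggc
TUBB4A: ATGCGGGAGATCgtgcacctgcaggccggc
TUBB4B: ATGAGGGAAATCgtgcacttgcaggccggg
TUBB6: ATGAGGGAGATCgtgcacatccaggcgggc
TUBG1: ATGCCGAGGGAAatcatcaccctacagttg
TUBG2: ATGCCCCGGGAGatcatcaccctgcagctg
The start codons of the alpha tubulins lie at chr12:49188417-49188419 (minus strand, TUBA1A), chr12:49131298-49131300 (minus, TUBA1B), chr12:49265182-49265184 (plus, TUBA1C) and chr2:219253856-219253858 (minus, TUBA4A). Those of the beta tubulins lie at chr6:30720507-30720509 (plus, TUBB), chr6:3157461-3157463 (minus, TUBB2A), chr6:3227541-3227543 (minus, TUBB2B), chr16:89923402-89923404 (plus, TUBB3), chr19:6502210-6502212 (minus, TUBB4A), chr9:137241361-137241363 (plus, TUBB4B) and chr18:12308293-12308295 (plus, TUBB6). Those of the gamma tubulins, which nucleate microtubules, lie at chr17:42609738-42609740 (plus, TUBG1) and chr17:42659504-42659506 (plus, TUBG2). The 11 alpha and beta tubulins hold 7 different versions of the capital bases. One of these 7 opens the coding sequence of 13 of 19573 coding genes (0.0664%), each of them named as an alpha or beta tubulin. The 7 were taken from the 11 tubulins, so 11 of the 13 matches were given in advance. The others were TUBB8, which was not tested, and TUBB8P12. Bases were compared and not the protein, so genes that encode the same start with other codons were not counted.

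The 16 libraries of the 2 lines held 9.20 to 14.6 M counts, and no pair of replicates agreed within sampling noise. MAP3K12 stood at 21.5, 17.3, 17.1 and 21.3 CPM (counts scaled to a common library total by the cpm function of edgeR, with TMM factors) in the untreated double KO libraries, 21.3% of the WT mean, and MAP3K13 at 29.4, 30.3, 30.4 and 26.2 CPM, 29.4% of WT. With vincristine MAP3K12 stood at 19.4, 16.3, 20.8 and 22.0 CPM and MAP3K13 at 31.5, 31.5, 28.7 and 27.9 CPM, ranges that overlapped the untreated ones. These are transcript levels and do not measure protein. Summed neuron markers ran from 19160 to 20390 CPM across the 8 double KO libraries, and all 13 were tested. Summed progenitor markers ran from 320.8 to 343.7 CPM and pluripotent cell markers from 72.1 to 78.7 CPM (10.5 to 15.8 in WT), the latter chiefly LIN28A and DNMT3B, with POU5F1 and NANOG near 0. In WT the summed progenitor markers ran from 785.3 to 827.1 CPM untreated and from 1078 to 2094 CPM with vincristine, chiefly through NES (715 ± 19.3 and 1528 ± 440.0 CPM, SD, n = 4), while SOX2 stood at 22.3 ± 1.96 and 20.5 ± 3.46 CPM; their part in the differences between the lines was not tested. Single progenitor markers went both ways, so the sums do not stand for the list. Of the 9 tested, 2 were lower in every untreated double KO library than in untreated WT, and 5 were higher. Over all genes these shares were 23.9% and 25.8%. The median of the 9 was 316.3% of WT. Summed neuron markers in WT ran from 15720 to 16650 CPM untreated and from 13600 to 14920 CPM with vincristine. Glial markers summed to 17.5 to 24.0 CPM and mesenchymal markers to 6.39 to 8.88 CPM. In bulk RNA, fewer cells of a type and less RNA per cell cannot be told apart. The fourth WT vincristine library stood apart from the other 3 (JUN at 293 CPM against 535.6 to 625.5), so comparisons with WT are also given without it. Among the 39 genes given with levels in double KO, these markers aside, the difference between the lines in the response passed in 19, and each of the 19 also passed without that library. Some of the 39 were named because this difference had passed and was large, so the 19 cannot be read as a rate. Over all genes tested the difference passed in 18.8%.

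Vincristine changed 1028 of 16304 genes in double KO (6.31%, adjusted p under 0.05, edgeR quasi-likelihood test on the 8 libraries), 591 higher (3.62%) and 437 lower (2.68%). Most changes were small: 886 of the 1028 (86.2%) were under 1.25-fold, and the median size was 0.20 on the log2 scale, or 1.15-fold. In 791 of them the 4 vincristine libraries were all above or all below the 4 untreated ones; over all genes tested, 5.2% were apart upward and 5.4% downward. Changes of at least 2-fold numbered 22, of which 6 were higher and 16 lower. In WT, 3529 of 16141 genes (21.9%) were called by the same test, with a median size of 0.63 and 803 of at least 2-fold. The WT libraries were more variable: the median standard error (SE) of a log2 fold change was 0.15 in WT and 0.092 in double KO. When all 32 libraries of the experiment shared 1 estimate of spread, 12 genes were called in double KO, 11 lower and 1 higher. These were TUBA1A, TUBA1B, TUBB, TUBB2A, TUBB2B, TUBB3, TUBB4A, TUBB4B, TUBG1, AL662797.1, HYDIN and STMN4. All other calls came from fits of these 8 libraries alone. The count of all calls fell from 1028 to 422 without untreated replicate 2 and to 473 without vincristine replicate 4.

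Tubulin genes were 9 of the 16 that fell at least 2-fold in double KO. Among the alpha and beta tubulins listed and tested, 3 of 4 alpha and 6 of 7 beta genes fell (2.68% of all genes), and none rose. TUBB8P12, outside the list and named after its value was seen, opens with the capital bases of TUBB. It did not pass (-0.27, edgeR adjusted p = 0.675). Their median log2 fold changes were -1.17 and -1.45, against -0.0023 over all genes. Summed over the tubulins, the level went from 6315 to 6801 CPM in the untreated libraries to 2113 to 2272 CPM with vincristine.

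TUBA1A (ENSG00000167552.13, GRCh38 chromosome 12, 49184796 to 49189324) encodes a major alpha tubulin of young neurons. It stood at 3865, 3546, 3732 and 3657 CPM in the untreated libraries and at 1153, 1249, 1154 and 1221 CPM with vincristine. The groups were far apart, and vincristine left 32.3% of the untreated mean (log2 fold change -1.63 ± 0.03, SE, n = 4 each, edgeR adjusted p = 2.58e-47). TUBA1B stood at 361, 340.0, 349.9 and 371 CPM untreated and at 105, 121, 109 and 116 with vincristine (-1.65 ± 0.04). TUBA1C stood at 6.15, 5.32, 4.95 and 7.49 CPM untreated and 3.06, 3.29, 4.14 and 3.98 with vincristine, a smaller fall (-0.71 ± 0.16, adjusted p = 0.0036). Its call was lost with DESeq2 and with all 32 libraries in 1 fit. TUBA4A stood at 3.69, 2.50, 3.46 and 2.56 CPM and 1.20, 2.22, 2.24 and 3.05 CPM, groups that overlapped, and did not pass (-0.46 ± 0.22, adjusted p = 0.24).

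Among the beta tubulins, TUBB (ENSG00000196230.12, GRCh38 chromosome 6, 30720201 to 30725426) stood at 1419, 1303, 1359 and 1469 CPM untreated and at 462, 475, 463 and 491 CPM with vincristine (-1.56 ± 0.03, adjusted p = 1.50e-44). TUBB2A fell from 252 ± 8.65 to 92.3 ± 6.17 CPM (SD, n = 4), and TUBB4A from 174 ± 5.15 to 55.8 ± 3.36 CPM. TUBB4B fell from 98.0 ± 6.45 to 35.6 ± 1.66 CPM. TUBB3, the beta tubulin used as a neuron marker, stood at 45.4, 42.5, 41.4 and 41.6 CPM untreated and 22.0, 21.1, 18.8 and 18.1 with vincristine (-1.10 ± 0.07). All of these groups were apart. TUBB6 stood at 3.28, 2.03, 2.80 and 3.47 CPM untreated and 2.51, 2.29, 3.10 and 2.31 with vincristine, and did not pass (-0.17 ± 0.21, adjusted p = 0.73). TUBB6 and TUBB3 open with the same capital bases. Tubulin genes are close in sequence, so reads may be split between them. AL662797.1 lies antisense within TUBB, AC010503.1 antisense at TUBB4A, TUBA1A and TUBA1C overlap on opposite strands, and TUBB3 overlaps AC092143.1 on the same strand. The strand setting of the counting is not given in the sources used here, so the falls of AL662797.1 (-1.86 ± 0.27) and AC010503.1 (-1.51 ± 0.33) cannot be told apart from those of the tubulins they overlap.

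**Figure D1:**
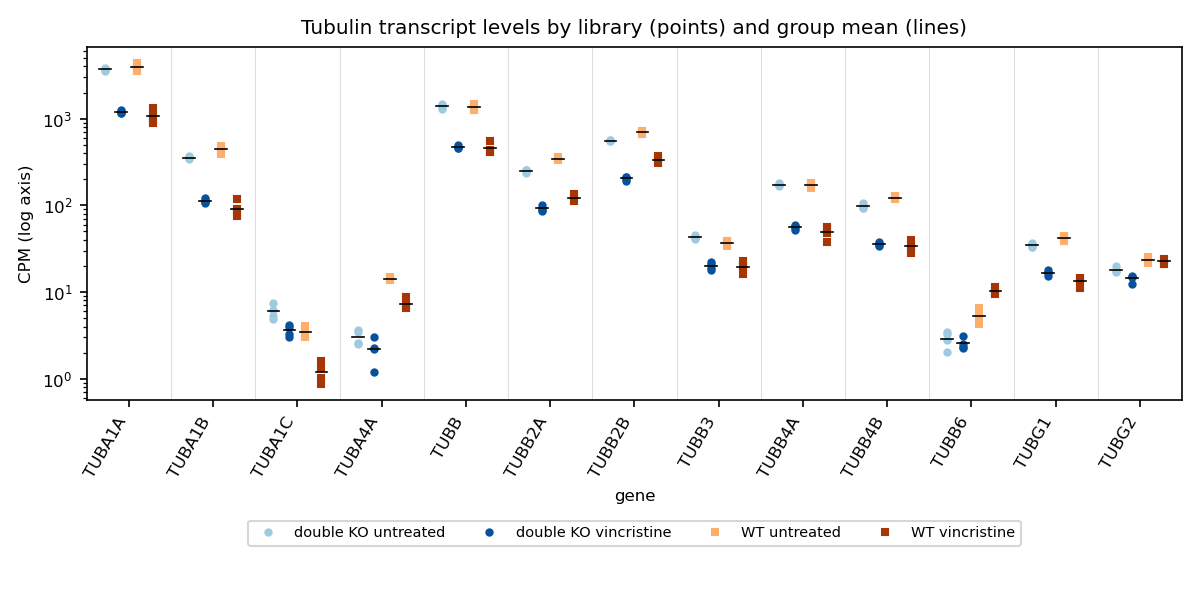
Transcript level of 13 tubulin genes in CPM on a log axis, with 1 point per library and a line at each group mean, for untreated and vincristine libraries of double KO (circles) and WT (squares). The TUBA1A libraries of double KO are apart by treatment, leaving 32.3% of the untreated mean, while the TUBB6 groups of double KO overlap.

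Of the 13 tubulin genes shown, 5 differed between the lines in their response, against 18.8% of all genes. When WT vincristine replicate 4 was left out, the difference passed in 3 alpha tubulins, all higher in double KO, against 1 of 4 with it. The beta tubulin counts, 1 higher and 2 lower, stayed the same. Over all genes, 5969 of 17874 then passed. These list counts do not show whether TUBA1A was among the 3 alpha tubulins. For TUBA1A the difference in log2 fold change, double KO minus WT, was 0.26 (95% interval -0.02 to 0.54, adjusted p = 0.19, interaction term over 16 libraries), and for TUBB 0.02 (-0.21 to 0.25, adjusted p = 0.92). Neither passed. TUBA1B fell less in double KO than in WT, where it went from 441 ± 39.6 to 91.5 ± 19.5 CPM (difference 0.62, adjusted p = 0.0058), as did TUBB4B (difference 0.40, adjusted p = 0.02). TUBB2B fell more in double KO: it stood at 564, 554, 546 and 562 CPM untreated and 193, 212, 201 and 214 with vincristine, leaving 36.9%, against 48.2% in WT (difference -0.39, -0.56 to -0.21, adjusted p = 0.003). TUBB6 rose in WT, from 6.46, 4.27, 5.33 and 5.06 to 10.4, 9.71, 11.3 and 9.52 CPM (0.94 ± 0.14, adjusted p = 9.37e-04), and the lines differed (difference -1.12, adjusted p = 0.0027). The gamma tubulin TUBG1 stood at 35.1, 33.5, 32.7 and 36.8 CPM untreated and 18.0, 15.5, 16.5 and 17.0 with vincristine in double KO (-1.05 ± 0.08, adjusted p = 2.10e-17), which left 48.5% against 31.8% in WT (difference 0.61, adjusted p = 0.0014). TUBG2 fell slightly, from 18.1 ± 1.37 to 14.4 ± 1.49 CPM (-0.32 ± 0.09, adjusted p = 0.023), a call lost in 4 of 18 alternatives, including DESeq2 and the fit without untreated replicate 2.

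Of 24 genes for tubulin folding and autoregulation, 7 rose and none fell (3.62% and 2.68% of all genes): the chaperonin subunits CCT2, CCT5 and CCT6A, the prefoldin subunits PFDN4 and VBP1, and the tubulin cofactors TBCA and TBCB. The largest was PFDN4, from 83.2 ± 8.17 to 105 ± 10.3 CPM (0.33 ± 0.08, adjusted p = 0.03), a call lost in 4 of 18 alternatives. In 3 of the 7 the libraries were apart. Without untreated replicate 2 the count was 1, without vincristine replicate 4 it was 3, and over all single libraries left out it ran from 1 to 10. In WT 1 of the 24 fell and none rose (10.2% and 11.6% of all genes). The difference passed in 3 higher and 1 lower in double KO (8.93% and 9.84%). Without WT vincristine replicate 4, 14 fell in WT, and the difference passed in 16 higher and 1 lower. TTC5 itself, named here after its value was seen, did not pass (-0.09 ± 0.06, adjusted p = 0.41).

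Of 35 microtubule-associated and plus-end proteins, 6 rose and 4 fell (3.62% and 2.68% of all genes). The risers included the 4 stathmins tested, which bind free tubulin and promote microtubule loss: STMN1 (0.22 ± 0.05), STMN2 (0.22 ± 0.04), STMN3 (0.15 ± 0.04) and STMN4. The STMN1 call was lost in 6 of 18 alternatives, among them limma voom and GC offsets, that of STMN2 with limma voom and that of STMN3 without vincristine replicate 4. STMN2 stood at 1910, 1652, 1823 and 1794 CPM untreated and 2014, 2123, 1992 and 2221 with vincristine, groups that were apart. STMN4 (ENSG00000015592.16, GRCh38 chromosome 8, 27235323 to 27258420) stood at 13.4, 11.9, 12.8 and 14.0 CPM untreated and 15.3, 18.7, 16.7 and 18.7 with vincristine (0.42 ± 0.09, adjusted p = 0.0025), and was the only gene called higher with all 32 libraries in 1 fit, though its call was lost with DESeq2. Its untreated level in double KO was 3.98% of WT, where it stood at 327, 332, 335 and 315 CPM and rose to 719.6, 746, 716 and 823 (difference -0.78, adjusted p = 1.96e-05). SVBP and CLASP2 made up the 6. Those that fell were the long genes MAP1A, MAP1B, CLASP1 and MACF1. MAP1A, which stabilises microtubules, stood at 589, 619.6, 555 and 578 CPM untreated and 494, 494, 494 and 468 with vincristine (-0.27 ± 0.04, adjusted p = 3.63e-07). With an offset for exon length, 7 of the list rose and 1 fell. Without untreated replicate 2, 4 rose and 3 fell, and without vincristine replicate 4, 4 rose and 2 fell.

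Of 12 AP-1 and ATF factors, 1 rose in double KO (3.62% of all genes) and 9 in WT (11.6%), and 8 were lower in double KO for the difference (9.84%; 10 and 8 without WT vincristine replicate 4). The 1 was JUN (ENSG00000177606.6, GRCh38 chromosome 1, 58780788 to 58784327), which stood at 37.8, 40.8, 35.9 and 40.8 CPM untreated and 43.9, 45.9, 45.8 and 46.4 with vincristine, apart but close (0.23 ± 0.06, adjusted p = 0.013; the call was lost without untreated replicate 3). In WT it went from 139, 150.1, 138 and 131 to 626, 570.5, 536 and 293 CPM (difference -1.63, -2.11 to -1.15, adjusted p = 6.92e-05), and the untreated level in double KO was 27.8% of WT. Of 23 JNK pathway and axon injury genes, GAP43, a growth cone protein, and MAPK8, which encodes the kinase JNK1, rose in double KO, and 14 of 25 rose in WT. In double KO the counts of these lists are near the 6.31% of all genes called. Each list in the next paragraph had 0 or 1 gene called, below that share, but the lists are short and the shortfall was not tested. GAP43 stood at 751, 707, 727 and 715 CPM untreated and 777, 830.3, 761 and 888 with vincristine (0.16 ± 0.04), and its change in WT was 0.12 ± 0.08 (difference 0.03, -0.17 to 0.23, adjusted p = 0.85).

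No gene was called in double KO among 12 integrated stress response genes, which amino acid and protein folding stress induce. Their log2 fold changes ran from -0.26 to 0.28, 0 of 12 had an unadjusted p under 0.05, and DESeq2 and limma voom called 0. All 12 rose in WT (11.6% of all genes), with a median of 2.08, and all 12 were lower in double KO for the difference (9.84%), also without WT vincristine replicate 4. Likewise 0 of 14 BCL2 family genes, which control apoptosis, were called by edgeR, DESeq2 or limma voom (2 with an unadjusted p under 0.05). In WT 5 of them rose and 3 fell (11.6% and 10.2% of all genes), the same counts as without WT vincristine replicate 4. Among 12 immediate early genes 0 were called by the 3 tools (1 unadjusted), and among 9 p53 targets 0 (3 unadjusted). Among 17 RhoA and SRF targets, genes of the actin cytoskeleton, 0 were called by the 3 tools (5 unadjusted). Of 21 ER chaperone and unfolded protein response genes CANX, which encodes calnexin, rose in double KO (0.11 ± 0.03, adjusted p = 0.044), a call lost in 9 of 18 alternatives, among them the fits that left out untreated replicate 2 or 3 or any 1 vincristine library. In WT 6 of 22 genes of that list rose and 14 fell (11.6% and 10.2% of all genes). The difference passed in 15 higher and 5 lower in double KO, of 22 tested (8.93% and 9.84%). Without WT vincristine replicate 4, 6 rose and 15 fell in WT, and the difference passed in 15 higher and 6 lower.

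Genes called in both lines numbered 201, which is 19.6% of the double KO calls and 5.70% of the WT calls. Of these, 87 moved the same way, 20 higher and 67 lower. The other 114 moved in opposite directions. In 79 the gene was higher in double KO and lower in WT (0.518% of 15254 genes tested in every fit), and in 35 the reverse (0.229%). The median size over the 114 was 0.23 in double KO and 0.56 in WT. The number of opposite genes depended on single libraries: it was 50 without double KO untreated replicate 2, 51 without vincristine replicate 4, and 459, which held all 114, without WT vincristine replicate 4. It was 64 with the replicate number as a block and 0 with all 32 libraries in 1 fit, where every double KO call of this kind was lost. A further 827 double KO calls were not called in WT, and for 167 of these the difference itself passed.

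**Figure D2:**
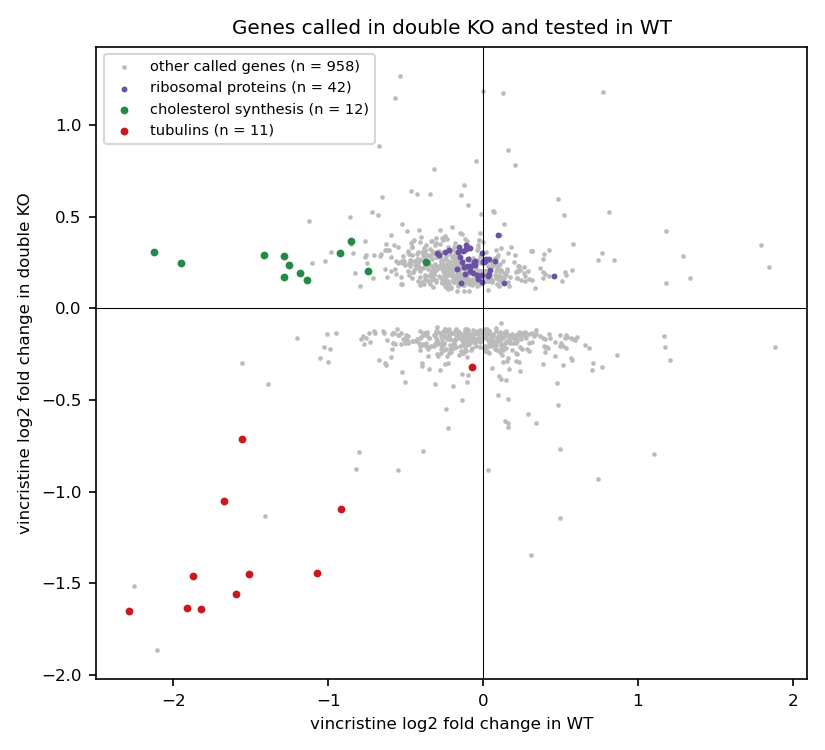
Vincristine log2 fold change in double KO (vertical) against WT (horizontal) for genes called in double KO and tested in WT, 1 point per gene, each axis from its own 8 libraries. Tubulins lie at the lower left, the 12 called cholesterol genes at the upper left, and most other genes within 0.5 of 0 on the vertical axis.

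Of 23 cholesterol synthesis genes, 12 rose in double KO and fell in WT. None fell in double KO, where 3.62% of all genes rose, and the list had a median log2 fold change of 0.17. In WT none rose and 21 of 23 fell (10.2%), with a median of -0.93. The difference passed in 20 of 23, all higher in double KO (8.93%). Without WT vincristine replicate 4, 21 fell and 1 rose in WT, and the difference passed in 22 higher and 1 lower. All 12 that rose were among the opposite genes, where they were 15.2% of the 79. The count in double KO ran from 9 to 12 with any single library left out, was 11 with exon length offsets and 10 with GC offsets, and 0 with all 32 libraries in 1 fit.

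INSIG1 (ENSG00000186480.12, GRCh38 chromosome 7, 155297776 to 155310235) holds SREBP2 in the endoplasmic reticulum and is itself a target of it. It stood at 43.3, 42.6, 47.6 and 41.9 CPM in untreated double KO and at 55.2, 54.4, 53.1 and 55.3 with vincristine, groups that were apart (0.31 ± 0.06, adjusted p = 2.11e-04). In WT it stood at 204, 197, 194 and 158 CPM untreated and 37.7, 48.4, 39.5 and 49.4 with vincristine (-2.12 ± 0.12). The difference was 2.42 (2.15 to 2.69, adjusted p = 2.04e-10). The untreated double KO libraries overlapped the WT vincristine libraries.

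HMGCS1, which makes the precursor of mevalonate, stood at 587, 542, 595 and 539 CPM untreated and 715, 756, 688 and 764 with vincristine in double KO (0.37 ± 0.04, adjusted p = 1.22e-10). In WT it went from 1627, 1521, 1527 and 1305 to 671, 921, 759 and 1001 CPM (difference 1.20, adjusted p = 2.93e-06). FDFT1, squalene synthase, rose from 182 ± 7.86 to 224 ± 9.82 CPM (0.30 ± 0.04, adjusted p = 3.67e-07), and STARD4, a sterol carrier, from 20.5 ± 1.83 to 24.4 ± 0.375 CPM (0.25 ± 0.08, adjusted p = 0.043). The STARD4 call was lost in 10 of 18 alternatives, among them DESeq2 and the fits without any 1 vincristine library. IDI1, SC5D, FDPS, MVD, SQLE and MSMO1 also rose, by 0.17 to 0.29, and the calls of MVD and MSMO1 were lost in 6 and 8 of 18 alternatives. The starting levels differed between the lines: in all 23 genes the 4 untreated double KO libraries were below the 4 untreated WT ones, against 23.9% of all genes. The untreated double KO mean was 20.1% to 60.0% of WT, with a median of 37.3% (101.1% over all genes). With vincristine the median was 72.0% of WT. In the single knockouts, fitted on their own 8 libraries (20.1% of genes called in DLK KO and 1.77% in LZK KO), 0 of the 23 fell and 6 rose in DLK KO (6.75% and 13.3% of genes), and 3 fell and 0 rose in LZK KO (0.288% and 1.48%). INSIG1 changed by -0.13 in DLK KO (adjusted p = 0.20) and by -0.59 in LZK KO (adjusted p = 0.0041).

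**Figure D3:**
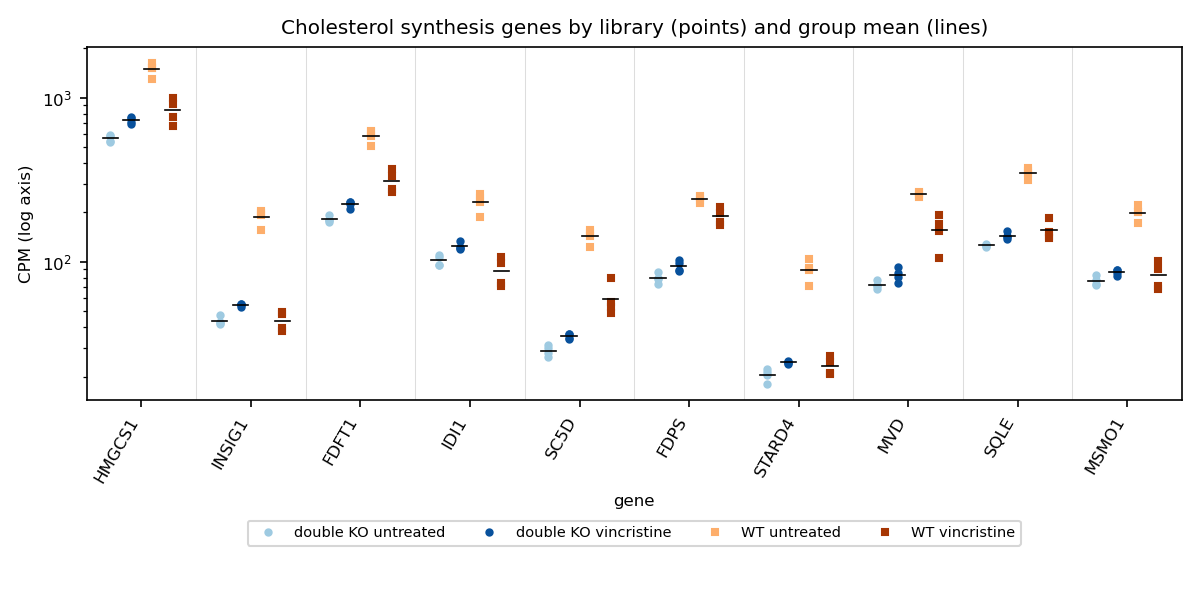
Level of 10 cholesterol synthesis genes that rose in double KO, in CPM on a log axis, ordered by fold change in double KO, with 1 point per library and a line at each group mean. In all 10 the untreated double KO libraries lie below the untreated WT libraries, and for INSIG1 and STARD4 the WT vincristine libraries come down to about the double KO level.

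Other genes rose in double KO and fell in WT. RGS4, which dampens G protein signalling, stood at 9.02, 9.00, 10.3 and 9.23 CPM untreated and 12.0, 14.1, 10.9 and 15.2 with vincristine (0.48 ± 0.11, lost with DESeq2), and in WT changed by -1.12 ± 0.18 (difference 1.58, adjusted p = 1.77e-05). TXN, thioredoxin, stood at 53.3, 48.0, 53.1 and 56.8 CPM untreated and 62.1, 68.8, 63.5 and 75.0 with vincristine (0.35 ± 0.06, adjusted p = 3.22e-05), and changed by -0.62 ± 0.18 in WT (difference 0.96, adjusted p = 0.0034). HSPD1, a mitochondrial chaperone, was the 1 of 19 heat shock genes called (0.13 ± 0.04), against 6.31% of all genes, and its call was lost in 9 of 18 alternatives; it fell in WT (-0.40 ± 0.11), and its double KO groups overlapped.

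The 35 genes that fell in double KO and rose in WT included SLFN5, with the largest difference among those named. SLFN5 stood at 36.6, 39.4, 33.8 and 38.3 CPM untreated and 31.9, 34.6, 32.0 and 29.5 with vincristine in double KO (-0.21 ± 0.07, adjusted p = 0.042). In WT it went from 17.6, 14.5, 18.4 and 18.6 to 69.6, 60.8, 55.0 and 73.0 CPM (difference -2.11, -2.40 to -1.82, adjusted p = 1.57e-09). Its call in double KO was lost in 10 of 18 alternatives, while the difference passed in every one of 26. LPP, a focal adhesion protein, stood at 27.7, 27.9, 25.8 and 26.0 CPM untreated and 23.4, 21.8, 20.8 and 22.7 with vincristine (-0.28 ± 0.07, adjusted p = 0.011), and went from 14.5 ± 2.02 to 33.9 ± 2.11 CPM in WT (difference -1.50, adjusted p = 4.02e-08). NEAT1, a nuclear long non-coding RNA, stood at 32.0, 41.9, 36.9 and 34.5 CPM untreated and 28.4, 30.8, 33.1 and 24.4 with vincristine (-0.32 ± 0.09, adjusted p = 0.035), a call lost in 8 of 17 alternatives, and rose in WT (0.77 ± 0.11). GPT2, ZFHX4, IGSF9B and AL353052.1 were also among the 8 with the largest differences, with double KO changes of -0.21, -0.15, -0.33 and -0.79; those calls were lost in 8, 10, 3 and 11 alternatives.

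Few genes rose in both lines. Beside STMN4, TXNIP, which binds thioredoxin, stood at 46.1, 39.1, 40.1 and 46.5 CPM untreated and 52.0, 55.9, 52.8 and 56.6 with vincristine in double KO (0.34 ± 0.06, adjusted p = 7.35e-05). The rise was smaller than in WT, where it was 1.79 ± 0.13 (difference -1.47, adjusted p = 1.11e-06). OXR1, an oxidation resistance gene, and ANXA2, a membrane-binding annexin, also rose in both (0.29 ± 0.07 and 0.26 ± 0.06 in double KO, 1.29 ± 0.11 and 0.84 ± 0.18 in WT). LEPR, the leptin receptor, rose in each (0.51 ± 0.16 and 0.52 ± 0.15; difference -0.03, -0.53 to 0.48), its double KO call being lost in 10 of 18 alternatives. MRPS31, RSL24D1 and ZNF184 were the others named, with double KO changes of 0.27, 0.35 and 0.30; the MRPS31 call was lost in 11 of 18 alternatives and that of ZNF184 in 4.

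Of 78 cytosolic ribosomal protein genes 42 rose and none fell (3.62% and 2.68% of all genes), with a median log2 fold change of 0.22 and a largest called change of 0.40. RPS27 stood at 71.6, 57.6, 62.4 and 68.4 CPM untreated and 88.4, 84.2, 77.8 and 92.6 with vincristine (0.40 ± 0.06, adjusted p = 2.52e-05), groups that were apart. In WT 1 of the 78 rose (11.6% of all genes), the WT libraries of RPS27 overlapped, and the difference between lines passed in 0 of the 78. Without WT vincristine replicate 4, however, 1 rose and 5 fell in WT and the difference passed in 42, all higher in double KO. Of 38 nuclear respiratory chain genes 13 rose and none fell, against the same shares of all genes. In WT 2 of the 38 fell (10.2% of all genes), and the difference passed in 11, all higher in double KO (8.93%). Without WT vincristine replicate 4, 27 fell in WT and the difference passed in 29, all higher. Over all genes, 3248 of 16473 then fell in WT, and the difference was higher in 3019 of 17874. COX7C, a subunit of cytochrome oxidase, stood at 190.2, 167, 170.0 and 173 CPM untreated and 216, 227, 208 and 265 with vincristine (0.39 ± 0.08, adjusted p = 0.018), a call lost in 5 of 18 alternatives. Of 13 mitochondrial genome genes 8 rose (3.62% of all genes), led in certainty by MT-CO3 at 1757, 1583, 1669 and 1624 CPM untreated and 1995, 1962, 1901 and 1953 with vincristine (0.23 ± 0.03, adjusted p = 2.97e-07). One of the 8, MT-ATP8, changed sign with exon length offsets, where 4 of the 13 rose. For the 13 the difference passed in 0, and in 11 without WT vincristine replicate 4, all higher in double KO. Without untreated replicate 2 the 3 counts of rises in double KO were 27, 5 and 4. Without double KO vincristine replicate 4 they were 34, 9 and 5. Ribosomal protein genes have many processed pseudogenes, so reads may be split among copies.

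Of 30 glycolysis and hypoxia genes 4 rose, against 3.62% of all genes (TPI1, BNIP3L, LDHA and LDHB, by 0.14 to 0.24), and 2 did without untreated replicate 2 or without vincristine replicate 4. Of 26 mitosis and replication genes 4 rose: NUSAP1, a spindle protein, at 1.74, 1.56, 1.81 and 1.46 CPM untreated and 3.06, 2.43, 3.27 and 2.87 with vincristine (0.80 ± 0.23, adjusted p = 0.022), TOP2A (0.52 ± 0.16), MKI67 (0.31 ± 0.09) and CENPF (0.31 ± 0.09). That count was 0 with DESeq2, 0 without untreated replicate 2 and 1 without vincristine replicate 4. These are low levels, and the summed progenitor markers overlapped between the groups. That sum is chiefly VIM and NES (means of 190.6 and 87.1 CPM in double KO). Of the 9 progenitor markers tested, 3 rose and 1 fell at an unadjusted edgeR p under 0.05, and MKI67, itself on that list, was the 1 called. Among called genes whose libraries did not overlap and whose mean log2 CPM was at least 1, the 12 largest rises were those of SNORD92 (1.15 ± 0.24, at 2.05, 0.861, 1.07 and 2.01 and 3.60, 2.79, 3.27 and 3.42 CPM, a call lost with DESeq2; difference from WT 1.70, adjusted p = 0.03), SNRPGP10, SNORA80B, NUSAP1, AC091271.1, SNORD115-41, MT-TP, RNA5SP119, CNBD2, VTRNA1-3, ASPM and TEX30, by 0.56 to 0.89 for those after SNORD92. The share of counts from small RNA ran from 5.79% to 7.74% in the untreated and from 7.09% to 9.51% in the vincristine libraries; its part in these rises was not tested.

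Of 25 kinesin and dynein genes 5 fell (2.68% of all genes) and none rose. DYNC1H1, the dynein heavy chain, stood at 2573, 2671, 2512 and 2604 CPM untreated and 2375, 2390, 2354 and 2238 with vincristine (-0.15 ± 0.03, adjusted p = 5.98e-04); KIF1A, KIF1B, KIF1C and KIF21B were the others. Of 28 voltage-gated ion channels 5 fell and none rose. Of 31 axon guidance genes 7 fell, among them the semaphorin receptor PLXNA4 at 432, 473, 436 and 442 CPM untreated and 410.1, 385, 408 and 380.3 with vincristine (-0.18 ± 0.04, adjusted p = 0.0013). Of 26 synaptic genes 3 fell, the active zone genes BSN, PCLO and UNC13A. SYT4, a vesicle synaptotagmin, was the 1 that rose (0.18 ± 0.04), near the 3.62% of all genes that rose. BSN stood at 214, 250.1, 218 and 233 CPM untreated and 206, 192, 212 and 200.0 with vincristine (-0.18 ± 0.04). With exon length offsets these counts of falling genes were 1, 2, 2 and 1. Without untreated replicate 2 they were 2, 4, 3 and 2, and without vincristine replicate 4 they were 2, 3, 2 and 3. Of 15 neuropeptide and granin genes 1 rose, also near that 3.62%. It was TAC1, which encodes substance P (0.23 ± 0.05, edgeR adjusted p = 0.0041), and its groups overlapped.

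Calls varied with exon length across all genes, though the shortest class broke the trend. Called higher genes had a median of 3421 summed exon bases and called lower genes 9536, against 4514 over all genes tested. Among genes over 8 kb, 8.58% fell and 1.74% rose. Among those of 1 to 2 kb, 0.604% fell and 6.65% rose, but under 1 kb 0.742% fell and only 2.09% rose. The difference between short and long genes in mean log2 level ran from -2.16 to -1.97 in the untreated double KO libraries and from -1.96 to -1.73 with vincristine, which did not overlap. In WT it ran from -2.26 to -2.00 untreated and stood at -2.43, -2.15, -2.47 and -1.82 with vincristine, groups that overlapped. The highest of these, -1.82, was WT vincristine replicate 4. With an offset for each library's trend with length, 805 genes were called, 655 of them shared with the 1028, and 67.7% of the calls were higher, against 57.5% without it. Their median lengths were then 4825 bases (higher) and 5781 (lower). The tubulin counts, 3 alpha and 6 beta genes, stayed as they were, the ribosomal count was 42 and the cholesterol count 11.

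**Figure D4:**
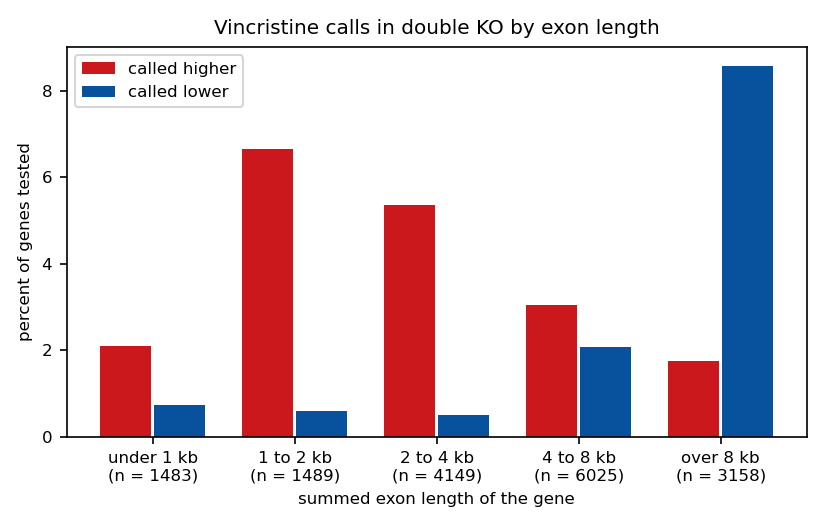
Percent of genes tested that were called higher (red) or lower (blue) with vincristine in double KO, by summed exon length of the gene; n is the number tested in each class. The blue bar is highest over 8 kb, at 8.58%.

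**Figure D5:**
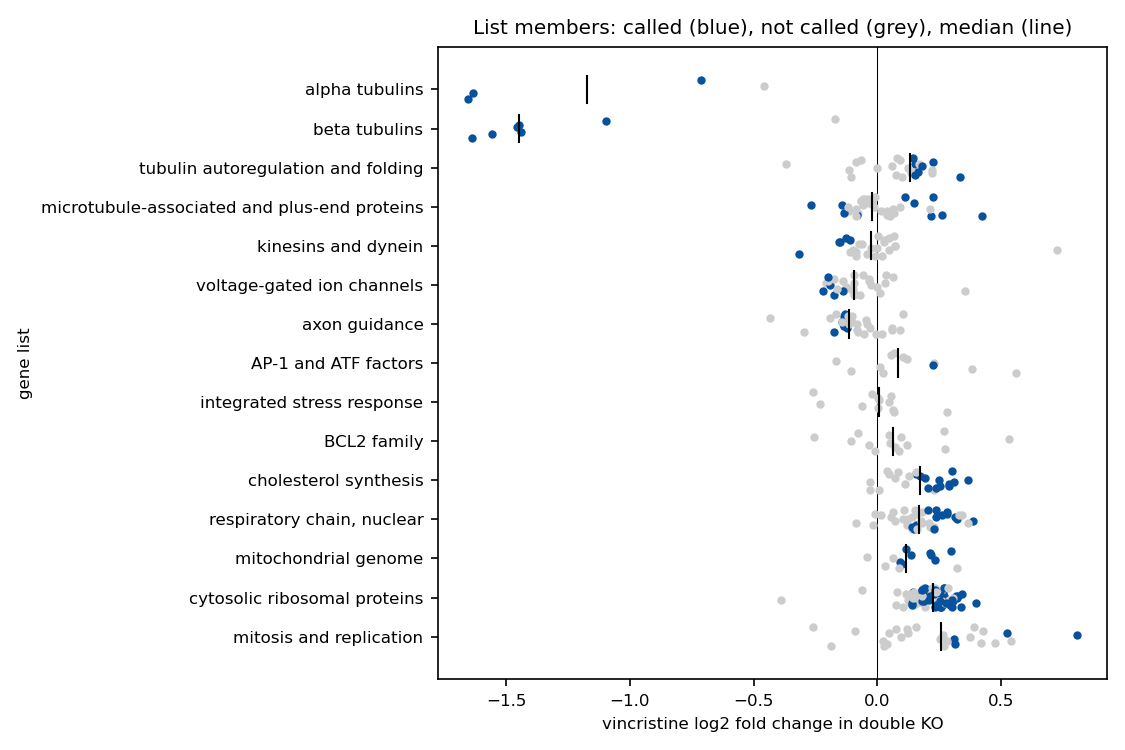
Vincristine log2 fold change in double KO of every tested member of 15 gene lists, 1 point per gene, blue where called and grey where not, with a line at the list median. Alpha and beta tubulins lie far to the left, at medians of -1.17 and -1.45, and the other 13 lists have medians between -0.11 and 0.26.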

How the data were processed

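RNA was measured in 16 libraries of 2 lines (4 per group), with 16 libraries of the single knockouts used in 1 alternative and for the cholesterol genes. Per the labels, poly(A)-selected RNA went into stranded libraries read as pairs. The deposited values are raw counts per gene. Per the submitters' processing notes, cutadapt 3.4, STAR and featureCounts (Subread 2.0.1) were used with GRCh38; no roles or strand setting are given. Of 58440 gene identifiers 58320 matched a symbol (GENCODE 29); 0 columns were left unused.

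Genes passing filterByExpr were fitted with edgeR 4.0.16 (TMM, robust quasi-likelihood, R 4.3.3), on 8 libraries per line and on 16 for the difference, and called at an adjusted p (Benjamini and Hochberg) under 0.05. SE is the log2 fold change over the root of F. The members and lists were chosen with earlier results of these data known. Named are the targeted genes and JUN; the 12 highest and 12 lowest changes among called genes whose libraries did not overlap and whose mean log2 CPM was at least 1; the 8 largest each way among opposite and among same-direction genes; called list members; and the tubulins. Any other gene is named as seen. Results for some single genes are not reported here, though counts over lists include them.

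Alternatives were DESeq2 1.42.0, limma 3.58.1 voom with quality weights, RLE factors, no filter, a mean of 1 CPM, a replicate block, all 32 libraries, GC offsets, protein-coding genes, each library left out and, added after seeing the data, exon length offsets. In simulated data, the double KO fit (16083 genes) called 75% of 100 genes changed 1.25-fold and 100% of 100 changed 2-fold, with 3 false calls; the difference (17095 genes) called 9% and 93%, with 5. With no change, 0 were called. Counts were drawn independently for each gene, with no shift shared by the genes of a library. Changed genes were drawn from the better expressed ones only. The simulation therefore cannot show how many calls such shared shifts would give in the real libraries. The number of libraries limits precision. The package data.table (version 1.17.8), pandas 2.3.3, Python 3.11.15 and matplotlib 3.10.9 handled files and figures.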

Additional observations from a re-analysis of the deposited data

Results flagged for a closer look

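For 39 genes given with levels, the effect of vincristine was compared between the lines, and the 19 that passed the test of the difference (interaction term, edgeR adjusted p under 0.05) are listed here as log2 differences, double KO minus WT. Some of the 39 had been named because this difference passed, so their passing was fixed in advance (18.8% of all genes passed). Cholesterol genes were INSIG1 at 2.42, STARD4 at 2.19, FDFT1 at 1.21 and HMGCS1 at 1.20. SNORD92 was at 1.70, RGS4 at 1.58 and TXN at 0.96. Among tubulins, TUBA1B was at 0.62, TUBG1 at 0.61, TUBB4B at 0.40, TUBB2B at -0.39 and TUBB6 at -1.12. On the side lower in double KO, SLFN5 was at -2.11, JUN at -1.63, LPP at -1.50, TXNIP at -1.47, NEAT1 at -1.10, STMN4 at -0.78 and MAP3K13 at -0.46.

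In 5 of 156 groups of 4 libraries, 1 library lay far from the other 3, where chance gives about 1 in 20. In double KO with vincristine these were TUBG2 at 12.2 CPM in replicate 1 and MAP1A at 467.5 CPM in replicate 4. In WT they were MAP3K12 at 94.0 CPM in untreated replicate 2, PLXNA4 at 39.3 CPM in untreated replicate 4 and MAP1A at 321.1 CPM in vincristine replicate 4. The share of small RNA was also apart, at 5.79%, in double KO untreated replicate 2, the library whose removal lowered the number of calls most.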

How the results depend on the processing

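The 1028 calls in double KO ranged from 422 (without untreated replicate 2) to 1139 with 1 library left out, and were 12 with all 32 libraries in 1 fit; under the 9 other alternatives they stayed within 1.5 times. The 3289 genes called for the difference (18.8%) became 5846 with voom and ranged from 2622 to 5969, the highest without WT vincristine replicate 4. The 3529 WT calls became 6513 with voom, 2052 with the replicate block and 5498 with all 32 libraries, and ranged from 2245 to 6358 with 1 library left out. The 114 opposite genes became 419 with voom, 64 with the replicate block, 0 with all 32 libraries and 181 with GC offsets, and ranged from 50 to 459. The cause was not tested. MT-ATP8 reversed with exon length offsets, to -0.039.

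Replicate numbers did not pair the double KO samples: same-numbered samples deviated with correlations of 0.038, 0.25, -0.015 and 0.14. With the block 1305 genes were called. For the 180 named genes, the double KO fold change kept its side of the threshold in 2503 of its values under the alternatives, lost its call in 722 and reversed in 1. The 2503 include changes of sign where the gene was called in neither fit, as for MAP3K13.

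Counting depth limits genes near 1 CPM, such as SNORD92. Calls outside the 12 held by the fit of all 32 libraries were made from the spread of these 8 libraries.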
